A study of Mus musculus with 83 samples.

Results

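The transcripts described here are 78 of the 467 piRNA rows in a small RNA count table from mouse cauda epididymal sperm, which holds 2052 features in all. They are the rows of type piRNA whose name gives a chromosome, a cytogenetic band, a number and a variant (as in 17-qC-935.3), with a number under 1000. The 78 transcripts belong to 36 loci, and 23 of these loci have more than 1 transcript variant. The remaining piRNA rows are 139 transcripts of 64 loci numbered 1000 or more and 250 transcripts named for a gene. The sources used here do not say what the number stands for. The names place each locus in a band, and base positions, transcript lengths and sequences of the loci were not used here, so a count or CPM value of 1 locus is not a measure of its level relative to another locus.

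Males aged 8 to 12 weeks were allotted at random to heat or to sham housing. Heat males (3 libraries) spent 7 days in a daily cycle of 8 h at 35 °C and 16 h at 25 °C, and control males (labelled sham, 3 libraries) were kept in the same kind of unit with the temperature held at 21 °C. Libraries were made from RNA of 18 to 40 nt cut from a gel. The study calls the libraries biological replicates, and the sources used here give neither the strain nor the number of males behind a library. The design asks whether a father's exposure to heat alters the small RNA payload of his sperm. The series holds 83 samples, and its 77 embryo samples were not used here.

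PIWI-interacting RNAs (piRNAs) are small RNAs of the germ line that guide PIWI proteins to transposon and messenger transcripts. In the mouse testis they are cut from long single-stranded precursors that are transcribed from discrete genomic loci, and the largest output comes from loci switched on at the pachytene stage of meiosis by the transcription factor A-MYB. Most piRNAs are lost as spermatids mature, and cauda sperm carry a remainder beside fragments of tRNA and rRNA and microRNAs. A count in the rows described here is a small RNA read assigned to a precursor transcript. The table does not say how long the read was, so a piRNA and another fragment of the precursor cannot be told apart, nor can fewer cells of a type and less RNA per cell.

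The heat libraries held 7078929, 7804051 and 9936108 counts, against 7743293, 8156203 and 6429221 counts in the control libraries. All piRNA rows together took 11.5%, 17.7% and 5.56% of counts in heat replicates 1 to 3, against 9.42%, 3.91% and 7.16% in control replicates 1 to 3. The share of rRNA was 49.8% in heat replicate 3 and between 24.6% and 29.2% in the other 5 libraries. Fragments of tRNA-Gly and tRNA-Glu, the best known small RNAs of cauda sperm, were present in all 6 libraries, with a summed level of 196029 to 361475 CPM in heat and 230178 to 569352 CPM in control sperm. CPM is the usual depth-scaled count, here with each library total multiplied by a TMM factor that centres the bulk of features. All 9 microRNAs of an epididymal epithelium list were above 0 in every library, with a summed level of 3517 to 6866 CPM in heat and 4567 to 6676 CPM in control sperm. So were all 19 of a testis germ cell list (11704 to 17454 CPM in heat and 11610 to 17001 CPM in control sperm) and the 4 listed blood microRNAs in the table (91.6 to 186 CPM in heat and 61.0 to 121 CPM in control sperm). Of the 9 epididymal microRNAs, 0 had a log2 fold change above 0, against 8 of 19 germ cell microRNAs, 2 of 3 blood microRNAs tested and 159 of all 566 microRNAs tested. At an unadjusted p under 0.05, 2 epididymal and 1 germ cell microRNA were lower in heat sperm and 1 blood microRNA was higher, against 1.56% of all features lower and 7.53% higher. The part of these lists in the results was not tested. In heat replicate 2, which stands apart in the results that follow, the 3 sums were 3906, 12922 and 91.6 CPM, each within the range of the other 5 libraries.

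Transcripts of the low-number loci were a minor part of sperm small RNA and took a larger share of it in heat sperm on average, with groups that overlapped. Their 78 rows held 0.665%, 0.957% and 0.312% of counts in heat replicates 1 to 3 (Wilson 95% intervals 0.659 to 0.671, 0.950 to 0.964 and 0.308 to 0.315), against 0.544%, 0.248% and 0.429% in control replicates 1 to 3 (0.539 to 0.549, 0.244 to 0.251 and 0.424 to 0.434). Heat replicate 2 was the highest library and control replicate 2 the lowest, while heat replicate 3 lay under 2 of the 3 control libraries. The mean share was 0.645 ± 0.323% in heat and 0.407 ± 0.149% in control sperm (SD, n = 3 each), a difference of 0.24 percentage points that was 0.0818 without heat replicate 2. The intervals are narrow because each library had 20194 to 74673 counts on these rows, and they cover counting error only.

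Among the piRNA rows named by band, the low-number share ran the other way. The low-number rows held 6.80%, 5.89% and 6.63% of these counts in heat replicates 1 to 3, against 6.65%, 8.00% and 7.61% in control replicates 1 to 3. The mean was 6.44 ± 0.480% in heat and 7.42 ± 0.692% in control sperm (SD, n = 3 each), and the groups overlapped through heat replicate 1 and control replicate 1. The library with the largest piRNA share, heat replicate 2, had the smallest low-number share of it, and the library with the smallest piRNA share, control replicate 2, had the largest.

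**Figure D1:**
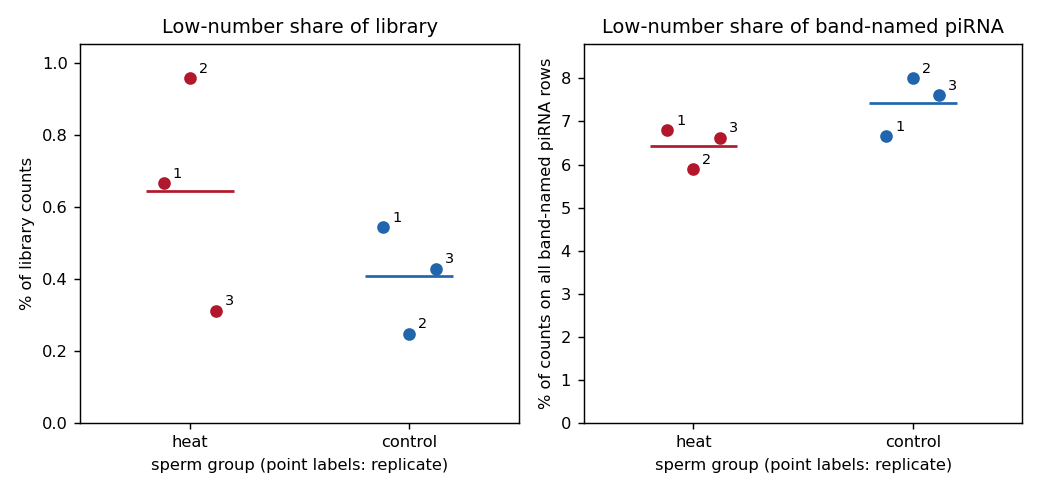
The left panel plots the percent of each library's counts that fell on the 78 low-number transcripts, and the right panel the percent of the counts on all band-named piRNA rows; points are libraries numbered by replicate and lines are group means. Heat replicate 2 is the highest of the 6 libraries on the left (0.957%) and the lowest on the right (5.89%).

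For the comparison by locus, the counts of all variants of a locus were summed, and all 1290 rows of that table that passed the filter on low counts were fitted together. All 36 low-number loci passed the filter, with 16 to 10759 counts per locus and library. Of the 36 loci, 33 had a log2 fold change above 0, against 52.7% of all rows, and 3 lay below 0. The median log2 fold change was 0.80, against 0.04 over all rows tested, with a range from -0.76 to 1.36. No locus passed at an adjusted p under 0.05 with edgeR's quasi-likelihood test (0 of 36, against 0% of all rows), nor with DESeq2 or limma-voom.

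At an unadjusted p under 0.05, 16 of the 36 loci (44.4%) were higher in heat sperm and 0 were lower, against 7.6% and 1.47% of all rows. DESeq2 gave 14 higher loci at that level, against 4.93% of all rows, and limma-voom 10, against 3.41%. On TMM-scaled CPM, every heat library lay above every control library in 14 loci, against 8.06% of all rows. In 0 loci every heat library lay below every control library, against 3.33%. In each of the 14 loci, heat replicate 3 had fewer raw counts than control replicate 1, though its library total was larger. By raw share of library counts the groups thus overlapped in all 14. The number of higher loci at an unadjusted p under 0.05 rested on single libraries. It was 2 without heat replicate 2, when 1.05% of all rows reached it, and 4 without control replicate 2, when 1.87% did. It was 25 when heat replicate 1 was left out, and also 25 when heat replicate 3 was. The share of all rows in those 2 fits is not given here, so the counts of 25 cannot be read against 7.6%. Fitted among piRNA rows alone, 28 of the 36 loci lay above 0, against 41.5% of those 340 rows. In that fit, which changes both the rows and the scaling, the median was -0.14 over the 340 piRNA rows and 0.38 over the members.

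The libraries were unequal in a way that ran through nearly all loci. Relative to the mean CPM of the 3 control libraries, the median locus stood at 1.14 in heat replicate 1, 2.86 in heat replicate 2 and 1.24 in heat replicate 3. In control replicates 1 to 3 it stood at 1.11, 0.80 and 1.08, so heat replicate 1 was close to control replicates 1 and 3. Loci above that mean numbered 28, 34 and 30 in heat replicates 1 to 3, against 29, 1 and 32 in control replicates 1 to 3. Heat replicate 2 was the highest of the 6 libraries in 33 of 36 loci and exceeded 2 times the control mean in 27 of them. Heat replicate 1 did so in 0 loci and heat replicate 3 in 1, 10-qC1-117. Control replicate 2 was the lowest of the 6 in 28 loci. Heat replicate 1 lay above every control library in 16 loci and heat replicate 3 in 24. These counts use CPM scaled by TMM factors of 1.53, 0.92 and 0.67 in heat replicates 1 to 3. The factors were 1.29, 0.79 and 1.02 in control replicates 1 to 3. As a raw share of library counts, the low-number rows of heat replicate 3 (0.312%) lay under those of control replicates 1 (0.544%) and 3 (0.429%). With heat replicate 2 left out, 31 of 36 loci still had a log2 fold change above 0, with a median of 0.28 against 0.03 over all rows, and no locus passed.

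**Figure D2:**
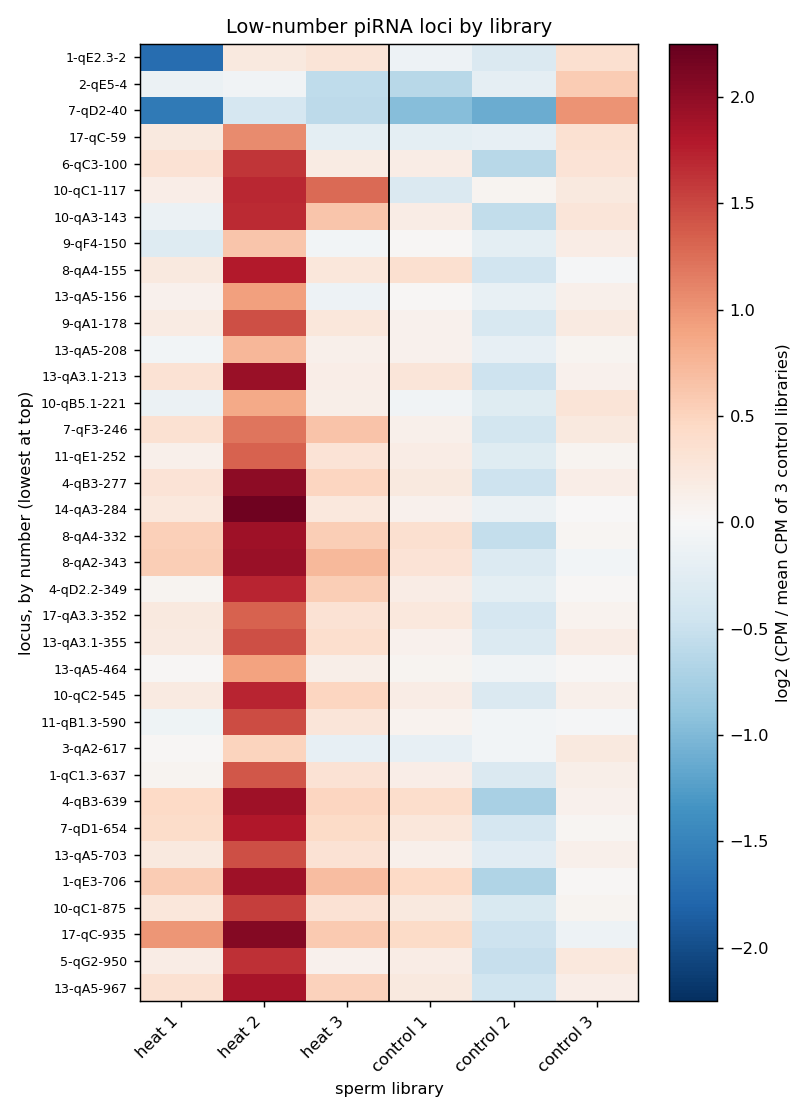
Each row is a low-number locus, ordered by number, and each column a sperm library; colour gives the log2 ratio of TMM-scaled CPM to the mean of the 3 control libraries. Heat replicate 2 is raised in nearly every row, with a median ratio of 2.86, and the 3 top rows, 1-qE2.3-2, 2-qE5-4 and 7-qD2-40, are those whose highest library is control replicate 3.

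The locus with the smallest p was 17-qC-935, on chromosome 17, which has 5 variants. It had 69.2, 146 and 52.5 CPM in heat libraries, against 46.9, 25.1 and 32.2 CPM in control libraries. On this TMM-scaled level every heat library lay above every control library, and the lowest heat library exceeded the highest control library by little. In raw counts the order differed: heat replicate 3 had 352 of 9936108 counts, a smaller share than the 470 of 7743293 in control replicate 1. Its log2 fold change was 1.36 (SE 0.42; edgeR, p = 0.00308, adjusted p = 0.531), and it was 0.84 without heat replicate 2 (p = 0.0464). Left-out libraries moved its call. Its adjusted p was 0.0375 when heat replicate 1 was left out (log2 fold change 1.52) and 0.0214 when heat replicate 3 was (1.64). Both fits kept heat replicate 2, which weighs more in the smaller heat group. The share of all rows that passed in them is not given here.

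The next locus was 10-qC1-117. It had 17.6, 51.3 and 38.3 CPM in heat libraries, against 12.6, 16.4 and 18.4 CPM in control libraries. Heat replicates 2 and 3 were both above every control library, while heat replicate 1 lay inside the control range. The log2 fold change was 1.18 (SE 0.38; edgeR, p = 0.00462, adjusted p = 0.531). It was 0.87 without heat replicate 2 (p = 0.0449), and without heat replicate 1 it was 1.55 with an adjusted p of 0.0184. These 2 loci were the only low-number loci at an unadjusted p under 0.05 without heat replicate 2.

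A pair of loci on chromosome 8 came next. The locus 8-qA2-343 had 89.4, 235 and 101 CPM in heat libraries, against 75.1, 49.3 and 57.9 CPM in control libraries. The locus 8-qA4-332 had 77.6, 200.2 and 78.8 CPM in heat libraries, against 68.8, 36.7 and 54.9 CPM in control libraries. In both, all heat libraries lay above all control libraries on this TMM-scaled level, and heat replicate 2 was more than 2 times the other heat libraries. In raw counts heat replicate 3, the larger library, had 678 and 528, against 752 and 689 in control replicate 1. Their log2 fold changes were 1.22 (SE 0.43) and 1.15 (SE 0.43), or 0.69 and 0.59 without heat replicate 2, and neither passed (edgeR, adjusted p = 0.531 for both). The second locus of band 8-qA4, 8-qA4-155, had 0.95 and overlapping groups.

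The locus 14-qA3-284 rested most on heat replicate 2. It had 132, 511 and 132 CPM in heat libraries, against 120, 103 and 113 CPM in control libraries. On TMM-scaled CPM the groups did not overlap, and heat replicates 1 and 3 stood just above the controls. The log2 fold change was 1.20 (SE 0.49; edgeR, adjusted p = 0.531) with all libraries and 0.27 (SE 0.39) without heat replicate 2. The ratio of heat replicate 2 to the control mean, 4.56, was the highest of any of the 36 loci in any library.

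The other loci at an unadjusted p under 0.05 had log2 fold changes from 0.78 to 1.19. The highest of them, 1-qE3-706, had 121, 306 and 132 CPM in heat libraries, against 111, 50.7 and 82.4 CPM in control libraries. Both loci of band 4-qB3 were among them, 4-qB3-277 (1.15, SE 0.48) and 4-qB3-639 (1.12, SE 0.47), and neither had overlapping groups on TMM-scaled CPM. On that scale the groups also did not overlap in 13-qA5-967 (1.07), 7-qD1-654 (1.04), 10-qC2-545 (0.96) and 7-qF3-246 (0.78). They overlapped in 13-qA3.1-213 (1.05), 4-qD2.2-349 (0.94) and 10-qA3-143 (0.91).

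**Figure D3:**
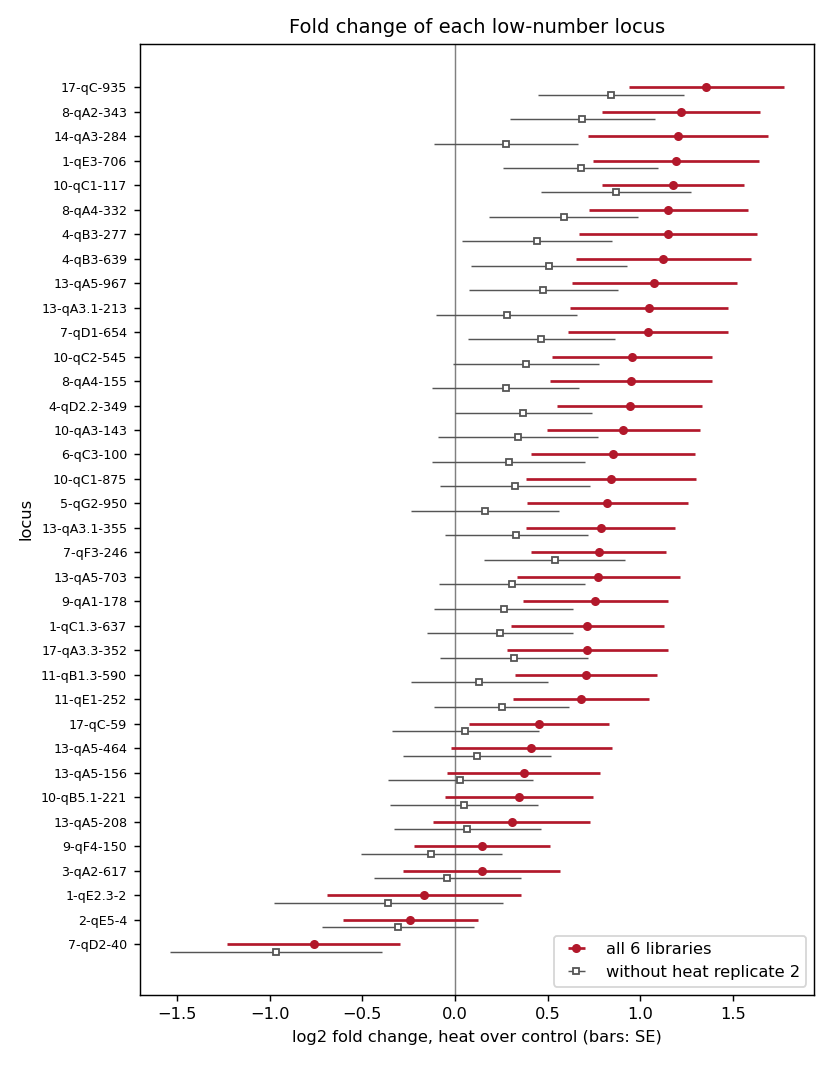
Log2 fold change of each low-number locus, heat over control, with its SE, from all 6 libraries (filled circles) and without heat replicate 2 (open squares). With all libraries 33 of 36 loci lie above 0, and without heat replicate 2 the median is 0.28.

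The 10 loci with the highest mean CPM spanned log2 fold changes from 0.14 (3-qA2-617) to 1.20 (14-qA3-284). The locus 4-qB3-277 had 462, 1491 and 521 CPM in heat libraries, against 436, 270 and 410 CPM in control libraries. The locus 10-qC1-875, with 3 variants, had 551, 1357 and 576 CPM in heat libraries, against 539, 365 and 483 CPM in control libraries, and a log2 fold change of 0.84 (SE 0.46). On TMM-scaled CPM groups were apart in both, and in both heat replicates 1 and 3 stood much closer to control replicate 1 than to heat replicate 2. The locus 13-qA5-464, with 5 variants, had 579, 1068 and 623 CPM in heat libraries, against 591, 538 and 579 CPM in control libraries. Its heat replicate 1 lay inside the control range, its log2 fold change was 0.41 (SE 0.43), and it was 0.12 without heat replicate 2.

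The 3 loci below 0 have the 3 lowest numbers of the 36, and none passed. The locus 7-qD2-40 had 21.3, 49.6 and 42.8 CPM in heat libraries, against 33.1, 29.9 and 130.1 CPM in control libraries. One library set this difference: control replicate 3 was more than 2 times every other library. The log2 fold change was -0.76 (SE 0.47; edgeR, p = 0.113, adjusted p = 0.692), and it turned to 0.39 without control replicate 3.

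The locus 2-qE5-4 had 16.7, 17.5 and 12.4 CPM in heat libraries, against 12.0, 15.9 and 27.4 CPM in control libraries (log2 fold change -0.24, SE 0.37). Control replicate 3 was again the highest, and without it the value was 0.30. The locus 1-qE2.3-2 had the fewest counts of the 36, with 16, 41 and 40 in heat libraries and 45, 25 and 41 in control libraries. Its groups overlapped widely, and its log2 fold change of -0.17 (SE 0.52) turned to 0.31 without heat replicate 1 and to 0.17 without control replicate 3.

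A further 2 loci near 0, 9-qF4-150 (0.15, SE 0.37) and 3-qA2-617 (0.14, SE 0.42), lay under 0 without heat replicate 2 (-0.13 and -0.042). The locus 3-qA2-617 had 315, 437 and 272 CPM in heat libraries, against 272, 297 and 358 CPM in control libraries. Its heat replicate 3 and control replicate 1 were level, and the groups overlapped. It had 1825 to 3409 counts per library.

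Several loci share a band. Band 13-qA5 holds 5 of the 36 loci, more than any other band. Of these, 13-qA5-208 stood at 0.31 (SE 0.42), 13-qA5-156 at 0.37 (SE 0.41), 13-qA5-464 at 0.41 (SE 0.43), 13-qA5-703 at 0.77 (SE 0.44) and 13-qA5-967 at 1.07 (SE 0.45). The differences between these loci were not tested. The first 3 lie within 1 SE of each other. In 13-qA5-208, heat libraries had 255, 444 and 288 CPM, against 286, 234 and 279 CPM in control libraries, with heat replicate 1 inside the control range. In 13-qA5-967, heat libraries had 111, 316 and 126 CPM, against 102, 63.9 and 97.0 CPM in control libraries, with no overlap in CPM. The 2 loci of band 17-qC were 17-qC-935 (1.36) and 17-qC-59 (0.45, SE 0.38). Closer values were seen for both loci of 4-qB3, both of 8-qA4 and both of 13-qA3.1 (13-qA3.1-213 at 1.05 and 13-qA3.1-355 at 0.79).

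By chromosome, the members were most frequent on chromosome 13 (7 loci, 18 transcripts) and chromosome 10 (5 loci, 8 transcripts). All 7 and all 5 had log2 fold changes above 0, with medians of 0.77 and 0.91. All 3 loci of chromosome 8 and all 3 of chromosome 4 were higher at an unadjusted p under 0.05. So were 44.4% of all low-number loci, 62.5% of the high-number loci and 7.6% of all rows. The medians of chromosomes 8 and 4 were 1.15 and 1.12, and no difference between chromosomes was tested. Of the 6 loci on chromosomes 8 and 4, 0 were at that level without heat replicate 2, and 1 (8-qA2-343) was without control replicate 2. The members of chromosomes 9 (2 loci) and 11 (2 loci) had medians of 0.45 and 0.69, and none reached that level. Both on chromosome 11, 11-qB1.3-590 (0.71) and 11-qE1-252 (0.68), had overlapping groups, as did 6-qC3-100 (0.85) and 10-qB5.1-221 (0.34).

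Fitted as separate transcripts among 1407 features, the low-number rows gave the same picture. All 78 passed the filter on low counts, 72 had a log2 fold change above 0 (51.8% of all features), and the median was 0.76, against 0.03 over all features. No transcript passed (0% of all features, smallest adjusted p 0.476 by edgeR). At an unadjusted p under 0.05, 32 were higher and 0 lower, against 7.53% and 1.56% of all features. On TMM-scaled CPM the groups did not overlap in 28, all with heat above control. Of all features, 11.2% had heat above and 3.55% heat below control. The count of 32 was 2 without heat replicate 2, 5 without control replicate 2, 10 without control replicate 3, and 50 without heat replicate 1. The share of all features in these 4 fits is not given here, so a change in the members cannot be told from a change in all features.

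Variants of a locus may share sequence, and the sources used here do not give how shared reads were assigned, so variants are not counted as independent measurements and their values are uncertain where reads are shared. In 7 of the 23 loci with several variants, the variants' counts were within 1.5 times of each other in every library. The 7 variants of 6-qC3-100 were nearly interchangeable, with log2 fold changes from 0.70 to 0.95 and counts at most 1.62 times apart in a library. The 5 variants of 17-qC-935 had log2 fold changes from 1.11 (SE 0.40) to 1.42 (SE 0.41). In 6 loci the most and least counted variants were over 3 times apart in every library.

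In 8 loci the variants' log2 fold changes were over 0.5 apart. The widest gap, 1.28, was in 9-qA1-178 and came from the sparse variant 9-qA1-178.3 (-0.46, SE 0.69), which had 26, 8 and 6 counts in heat libraries and 8, 16 and 18 counts in control libraries. The next gap, 1.02, had counts behind it. The variant 14-qA3-284.1 had 31.6, 199 and 33.4 CPM in heat libraries, against 27.2, 19.9 and 25.5 CPM in control libraries (log2 fold change 1.86, SE 0.52). The variant 14-qA3-284.2 had 97.5, 289 and 98.9 CPM in heat libraries, against 88.9, 92.2 and 88.9 CPM in control libraries (0.85, SE 0.45). In both, heat replicate 2 alone stood far above the rest.

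The make-up of 14-qA3-284 stood apart in 1 library. Variant 14-qA3-284.1 took 24.5%, 40.8% and 25.3% of the locus in heat libraries, against 23.4%, 17.7% and 22.3% in control libraries. Without heat replicate 2 the log2 fold changes were 0.44 (SE 0.34) for 14-qA3-284.1 and 0.14 (SE 0.34) for 14-qA3-284.2.

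In 4 further loci a less counted variant lay near or under 0 beside higher ones with more counts. In 13-qA5-156, variant 13-qA5-156.1 stood at 0.48 (SE 0.42) and 13-qA5-156.2 at -0.074 (SE 0.37). In 13-qA5-464, 4 variants stood between 0.36 and 0.39, and 13-qA5-464.5 at -0.14 (SE 0.37). In 1-qC1.3-637, the variant 1-qC1.3-637.1 stood at 0.75 (SE 0.42) and 1-qC1.3-637.2 at 0.01 (SE 0.38). The minor variant took 16.7%, 8.98% and 7.56% of the locus in heat libraries, against 15.6%, 18.0% and 14.9% in control libraries, so heat replicates 2 and 3 lay below and heat replicate 1 inside the control range. In 17-qA3.3-352, variants 17-qA3.3-352.1 and 17-qA3.3-352.2 stood at 0.64 and 0.73, and 17-qA3.3-352.3 at 0.03 (SE 0.41). In 13-qA3.1-355 the order differed: the variant 13-qA3.1-355.2 stood at 1.14 (SE 0.43) and the major variant 13-qA3.1-355.1 at 0.50 (SE 0.37).

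**Figure D4:**
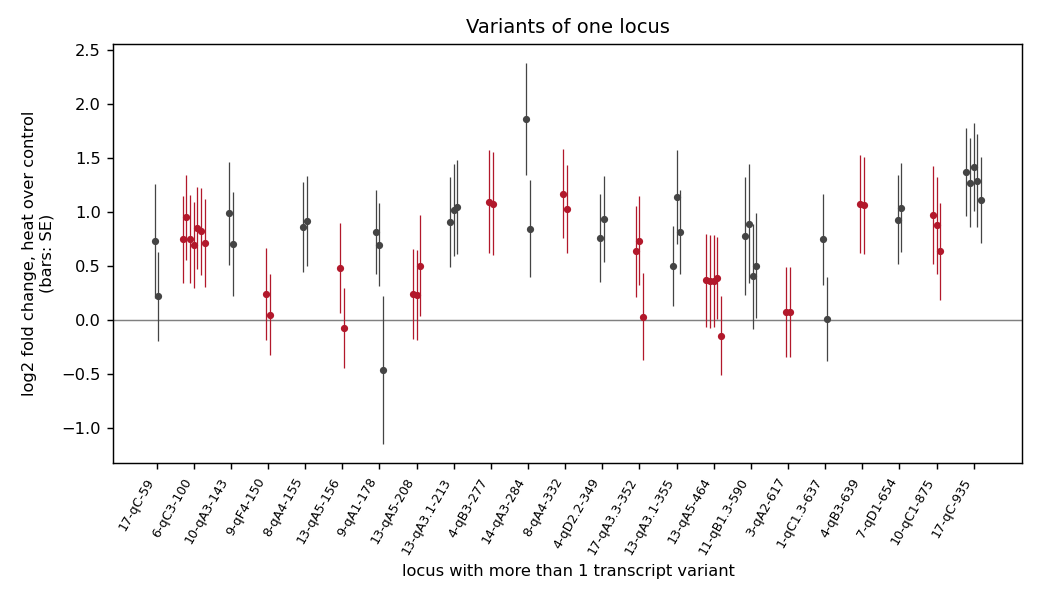
Log2 fold change of each transcript variant, heat over control, with its SE, for the 23 loci that have more than 1 variant; colours only separate neighbouring loci. Variants of 6-qC3-100 and 17-qC-935 lie together, while those of 9-qA1-178 and 14-qA3-284 are over 1 log2 unit apart.

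The 3 loci below 0 all had numbers under 100. Over the 36 loci the number and the log2 fold change had a Spearman correlation of 0.41, as a description, since all loci share the same 6 libraries. Of the 4 loci numbered under 100, 1 lay above 0, and their median was -0.21. Without control replicate 3 none of the 3 loci below 0 stayed there, with values of 0.39 for 7-qD2-40, 0.30 for 2-qE5-4 and 0.17 for 1-qE2.3-2. All 32 loci numbered from 100 upward lay above 0, with medians of 0.85 for 7 loci below 200, 0.86 for the next 12 below 400, 0.71 for the next 7 below 700 and 0.96 for the last 6. These ranges were chosen after the values were seen.

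Fold changes just inside and just outside the limit of 1000 overlapped. Just inside it, 5-qG2-950 had 110 ± 72.6 CPM in heat and 62.0 ± 16.4 CPM in control sperm, and 13-qA5-967 had 184 ± 114 CPM in heat and 87.6 ± 20.7 CPM in control sperm (SD, n = 3 each). Just outside it, 14-qC1-1010 had 804 ± 463 CPM in heat and 429 ± 106 CPM in control sperm, and 2-qG3-1029 had 1883 ± 1163 CPM in heat and 1015 ± 225 CPM in control sperm. The log2 fold changes were 0.82 and 1.07 inside, beside 1.36 for 17-qC-935, and 0.91, 0.89 and 0.70 (6-qF3-1063) outside.

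**Figure D5:**
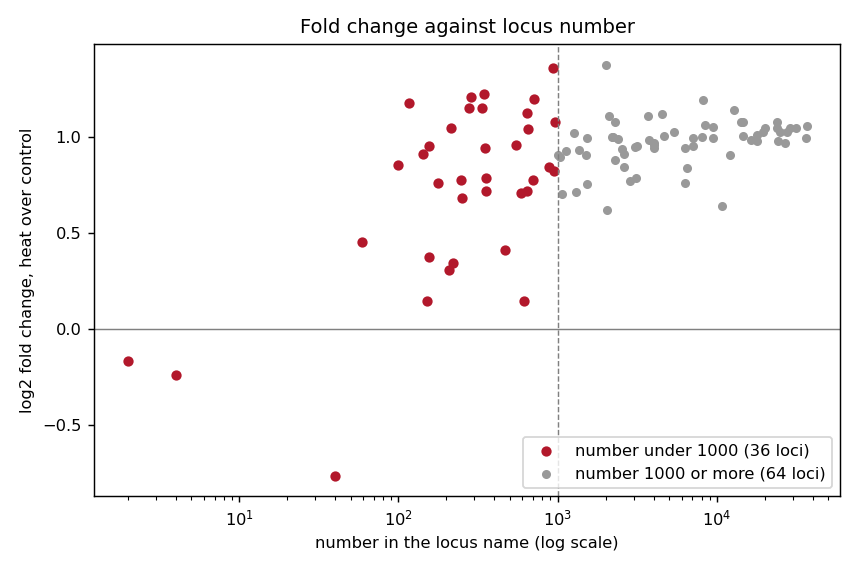
Log2 fold change, heat over control, against the number in the locus name on a log axis, for 36 low-number and 64 high-number loci; the dashed line marks 1000. Low-number loci run from -0.76 to 1.36 and high-number loci from 0.62 to 1.37.

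Set beside the other piRNA rows, the low-number loci lay with the high-number loci and apart from the gene-named rows, though no difference between these lists was tested. All 64 high-number loci lay above 0, with a median log2 fold change of 0.99. With all 6 libraries 40 were higher at an unadjusted p under 0.05, against 7.6% of all rows. That count was 17 with RLE in place of TMM factors (5.19% of all rows) and 54 with DESeq2 (4.93%). It was 0 without heat replicate 2 (1.05% of all rows) and also 0 without control replicate 2 (1.87%). Of 240 gene-named rows tested, 133 lay above 0, with a median of 0.04, and 11 were higher at that level (4.58%). These gene-named rows were kept single, while the variants of band-named loci were summed. Fitted as separate transcripts, the median log2 fold changes were 0.76 for low-number, 0.92 for high-number and -0.02 for gene-named rows. In heat replicate 2 the median log2 ratio to the control mean was 1.50 for low-number loci, 1.76 for high-number loci and 0.13 for gene-named rows. In heat replicate 1 these medians were 0.19, 0.29 and -0.13, and in heat replicate 3 they were 0.31, 0.42 and -0.01. All 3 heat libraries were set against the same control mean, so their shared order of the 3 lists is not 3 separate observations. Control replicate 1 had sums close to those of heat replicate 1 for high-number loci (58996 and 59644 CPM) and low-number loci (4206 and 4350 CPM). Its gene-named sum was lower (9656 and 10971 CPM).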

How the data were processed

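Per the submitters' processing notes, the authors used Trimmomatic, Bowtie2, RSEM and mm10, with no versions or roles. The authors deposited raw counts per small RNA feature, 1 column per library, and no file states how reads shared by near-identical features were assigned. Band-named piRNA rows were grouped by locus, and variants were summed. Heat was compared with control in edgeR 4.0.16 (R 4.3.3), by its quasi-likelihood test on the counts, with TMM scaling and the default filter (minimum count 10, minimum total 15), once by transcript and once by locus, each over the whole table with Benjamini-Hochberg adjustment. SE was taken as the size of the log2 fold change divided by the root of F. All tests were two-sided and calls were at an adjusted p under 0.05. With 3 against 3 libraries an exact permutation test of 1 value cannot go below p = 0.1. Sums over members got no test. The p-values set each difference against the spread between these libraries, with information on spread shared over all rows fitted. The script was tested on simulated counts whose planted changes were larger than any of the members. That test does not cover changes of the size seen here.

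Alternatives were RLE factors, library totals, other filters, DESeq2 1.42.0, limma-voom (limma 3.58.1), row subsets, a replicate block, the highest variant in place of the sum, and each library left out. The members and lists were chosen with earlier results of these data known. Named loci were the 10 with the highest mean CPM, the 10 higher and 5 lower by p (only 3 were lower), the 5 with the widest gap between variants and the 3 on each side of the number limit, and further members were named after their values were seen. Embryo files were not used here.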

Additional observations from a re-analysis of the deposited data

How the results depend on the processing

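No low-number locus passed under any alternative that kept all 6 libraries, and 0 to 2 passed with 1 library left out. Among transcripts, 1 passed with a filter of 10 CPM in 3 libraries, and 0 to 4 with 1 library left out. The share of all rows or features that passed in these fits is not given here. These calls therefore cannot be told from a change over all rows. The 16 loci higher at an unadjusted p under 0.05 were 5 with library totals, 10 with limma-voom, 8 with piRNA rows fitted alone and 2 to 25 with 1 library left out. Of all rows in the first 3 of these fits, 3.02%, 3.41% and 3.24% were higher at that level, against 7.6% in the main fit. The 32 such transcripts were 10, 20 and 5 under the same 3 settings, 20 with rRNA rows left out, and 2 to 50 with 1 library left out. Shares of all features are not given here for these transcript counts. Lower at that level were 1 locus and 1 transcript with the stricter filter, 1 and 2 with piRNA rows alone, and 0 to 1 of each with 1 library left out. The median over loci kept its sign throughout, from 0.28 to 1.06 with 1 library left out. With piRNA rows alone, whose overall median was -0.14, it was 0.38 and 28 of 36 loci lay above 0. The share difference of 0.24 percentage points was 0.605 with microRNA and piRNA rows as the total, and 0.0818 to 0.404 with 1 library left out; within band-named rows it ran from -1.37 to -0.69. Of 415 alternative values of 26 named loci, 8 turned: with piRNA rows alone 3-qA2-617 (-0.21), 13-qA5-208 (-0.073) and 13-qA5-156 (-0.026); without heat replicate 2, 3-qA2-617 (-0.042); without heat replicate 1, 1-qE2.3-2 (0.31); and without control replicate 3, 7-qD2-40 (0.39), 2-qE5-4 (0.30) and 1-qE2.3-2 (0.17). With 1 library left out, 7-qD2-40 ran from -1.09 to 0.39, 2-qE5-4 from -0.36 to 0.30 and 1-qE2.3-2 from -0.46 to 0.31. The causes were not tested. With 3 libraries a group the median SE over the 36 loci was 0.43 on the log2 scale, and every locus had at least 16 counts in every library.

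The labels do not say whether equal replicate numbers pair the libraries. Deviations from the group mean of same-numbered heat and control libraries correlated at -0.08, -0.39 and 0.11. Libraries of unequal number ran from -0.23 to 0.33. With 3 libraries a group, whose deviations sum to 0, these values cannot settle whether libraries were paired. With a replicate block, 5 loci and 14 transcripts were higher at an unadjusted p under 0.05, and 0 passed. The share of all rows in that fit is not given here.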

Other observations

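Across the 6 libraries, most low-number loci moved together. Each locus was correlated, on the log2 CPM scale, with the sum of the other low-number loci. The median Pearson correlation was 0.97, and 29 of 36 loci were above 0.9. The 3 exceptions under 0.5 were 1-qE2.3-2 (0.28), 2-qE5-4 (0.06) and 7-qD2-40 (0.15). These values describe 6 shared libraries, of which heat replicate 2 was the highest in 33 of 36 loci. The same 3 loci had correlations of 0.24, -0.03 and 0.10 with the sum of the high-number loci, and of 0.53, 0.61 and 0.73 with the sum of the gene-named piRNA rows. For 4-qB3-277 the values were 1.00 and 0.67. With the gene-named sum, the other low-number loci ran from 0.46 (17-qC-935) to 0.89 (10-qB5.1-221), so these 3 loci lay inside that range. The gene-named sum was 10971, 15775 and 12747 CPM in heat replicates 1 to 3, against 9656, 10283 and 14966 CPM in control replicates 1 to 3. The high-number sum was 59644, 165282 and 65078 CPM in heat replicates 1 to 3, against 58996, 35920 and 50874 CPM in control replicates 1 to 3. Control replicate 3 was thus high in the gene-named sum and not in the high-number sum.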
